A study of Mus musculus with 2 samples.

Results

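In the control wounds, 348 Tomato+ fibroblasts carried transcripts of at least 4 of the 6 genes *Wnt2*, *Dlk1*, *Nov*, *Pamr1*, *Sfrp4* and *Tnxb*, and 176 of them carried all 6. They were chosen from the measured values by a rule, so the levels of these 6 genes describe the choice and are not a finding. A control cell with at most 10% mitochondrial transcripts was taken as a fibroblast when *Pdgfra*, *Lum*, *Dpt*, *Lox* and *Postn* together reached 10 per 10000 of its unique molecular identifiers (UMIs, each marking a captured transcript) and *Pecam1*, *Sox10*, *Rgs5* and *Ptprc* together had at most 2. A fibroblast was a member when at least 4 of the 6 genes had a UMI. Members were 22.0% (20.0–24.2) of the 1579 gated control cells and 12.2% (11.01–13.4) of the 2856 control cells kept, out of 4680 cells in both libraries. The same rule found 24 cells among 1090 gated *SM22-SmoM2* cells, 2.20% (1.42–3.26). Values in parentheses are 95% intervals for counting error alone, by Clopper-Pearson for shares, and leave out differences between mice.

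The study asked how Hedgehog signaling in the wound dermis affects the fibroblasts. There was 1 library per condition and no replicate, so no test was run and every difference describes these libraries. Control mice were *SM22rtTA; tetO-Cre; R26-Tomato* and the others *SM22rtTA; tetO-Cre; R26-SmoM2/Tomato*, 4–5 weeks old, and both were given doxycycline at 20 g/kg starting 1 day after wounding and lasting until 3 days after closure of the epidermis, when wounds were taken. In both genotypes the promoter of *SM22α* (the gene *Tagln*) drives rtTA, which turns on Cre with doxycycline, so that cells which used this promoter, and their descendants, make the red protein Tomato. The SmoM2 allele adds an always active form of Smoothened in the same cells. Dermis was freed with 20 mM EDTA for 1 h per the labels, and Tomato+ cells of pooled wounds were sorted. Kept cells held 30103855 UMIs for control and 17814222 UMIs for *SM22-SmoM2*. The median member had 14391 UMIs (range 3307 to 54087), 3638.5 detected genes and 1.99% mitochondrial UMIs.

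Wnt ligands are secreted lipid-modified proteins that bind Frizzled receptors, and in skin they act in hair follicle formation and in dermal fibroblasts. *Wnt2* encodes such a ligand, and *Sfrp4* encodes a secreted Frizzled-related protein that can bind ligands outside the cell. *Dlk1* is an imprinted gene for a membrane protein related to the Notch ligands and is known from preadipocytes and the lower dermis. *Nov* (also called *Ccn3*) encodes a matricellular protein of the CCN family, *Pamr1* a secreted protein with a domain like that of serine proteases, and *Tnxb* tenascin X, a matrix protein that binds collagen fibrils. Fibroblasts of the fascia and of the vessel adventitia are known for *Pi16*, *Dpp4*, *Ly6c1*, *Clec3b* and *Cd248*, and those of the upper (papillary) dermis for *Crabp1*.

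The gate did not hold fibroblasts alone. Of the 1231 other gated control cells, 518 (42.1%) had at least 10 UMIs per 10000 of markers of another lineage, 498 of them markers of Schwann cells, the glia of peripheral nerves. Among the 348 members, 10 cells (2.87%) passed that limit, 4 by mural, 3 by immune, 2 by Schwann and 1 by keratinocyte markers, and 12 members had 5 to 10 such UMIs per 10000 and 4 had 10 to 15. The 713 other gated cells under the limit are called other fibroblasts here, and a ratio is a log2 ratio of summed UMIs per 1000000 (CPM) in members over these 713 cells, unless all 1231 other gated cells are named. Where 2 levels are given, that of members comes first, and the log2 ratio follows in parentheses, with its interval where it is shown. With cells of other lineages left out of both sides, members were 338 of 1051 fibroblasts, 32.2% (29.3–35.1). The gate itself holds down *Sox10*, a defining Schwann marker, and *Ptprc*, the pan-leukocyte marker, which had 2 UMIs each in the 348 members. Of fibroblast genes that the gate did not use, members had 17419 CPM of *Col3a1* and 8017 CPM of the proteoglycan gene *Dcn*. The 14 listed fibroblast genes, those of the gate included, summed to 68855 CPM in members and 92969 CPM in other fibroblasts. Of them 3 had a ratio above 0, and the median was −0.37.

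The plot of rule genes per cell shows how the cells fell around the limit. Of the gated control cells, 637 had none of the 6 genes, 326 had 1, 183 had 2, 85 had 3, 69 had 4, 103 had 5 and 176 had all 6. At full depth the counts thus had a low at 4 genes and a second high at 6. At 2500 UMIs per cell they were 961, 237, 125, 118, 103, 50 and 18 cells, with no second high. In the *SM22-SmoM2* library the counts at full depth were 740, 214, 81, 31, 17, 6 and 1 cells, also with no second high.

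**Figure D1:**
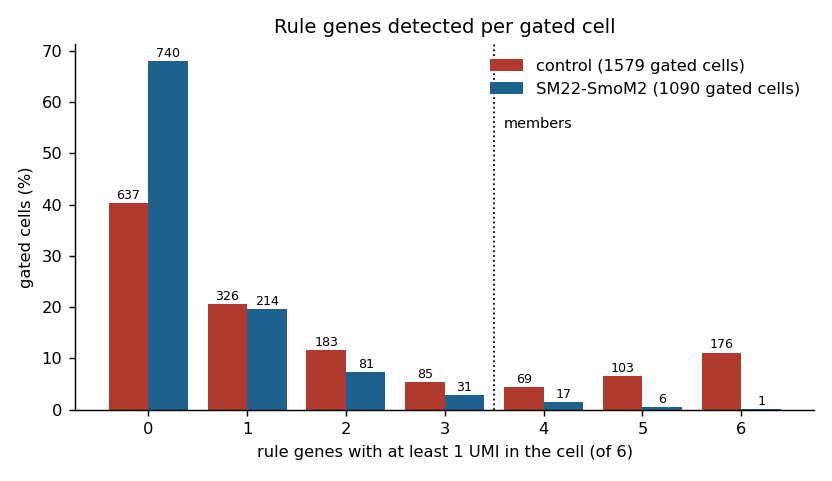
Share of gated cells (%, y axis; cell numbers above the bars) by the number of the 6 rule genes with a UMI (x axis) in the control and *SM22-SmoM2* libraries, with a dotted line at the rule's minimum of 4. At this full depth the control library has a second high at 6 genes (176 cells), which it lacks at 2500 UMIs (18 cells), and the *SM22-SmoM2* library has 1 cell there.

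More UMIs per cell give more detected genes, and members had a higher median depth than the 8211 UMIs of the other gated cells and the 11634 UMIs of the other fibroblasts. After random thinning of all cells to 2500 UMIs and new gating, 171 of 1612 gated cells in the control, 10.6% (9.15–12.2), and 2 of 1064 in *SM22-SmoM2*, 0.188% (0.0228–0.677), met the rule. Cells outside the gate, which were shallower than members and other fibroblasts, show the level outside fibroblasts. At least 4 of the 6 genes were found in 3 of 554 control cells with endothelial markers (0.542%), in 0 of 151 with Schwann markers, which allows a share of up to 1.99% when 3 cells are set against the total, and in 0 of 286 with mural markers, which by the same reckoning allows up to 1.05% (the Clopper-Pearson upper limits were 2.41% and 1.28%). These cells had medians of 8842, 6215 and 5493.5 UMIs. *Wnt2* alone, at 2500 UMIs per cell, was found in 37.9% of members, 1.82% of other fibroblasts and 0.722% of the endothelial cells.

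*Wnt2* (ENSMUSG00000010797) lies on the minus strand at chr6:17988940-18030585 of GRCm38. It had 222 CPM (210–235) in members, 6.12 CPM in the other gated cells and 7.68 CPM in the other fibroblasts. It was detected in 76.1% of members, with a lowest value of 0, a median of 1.58 and a highest of 13.97 UMIs per 10000, and in 7.01% of other fibroblasts. *Sfrp4* (ENSMUSG00000021319, chr13:19623104-19632994, plus strand) had 412 CPM in members and 52.3 CPM in other fibroblasts. It was detected in 84.5% of members and 11.9% of other fibroblasts.

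*Dlk1* (ENSMUSG00000040856, chr12:109452823-109463336, plus strand) had 1706 CPM in members and 74.2 CPM in other fibroblasts. Per member its values ran from 0 over a median of 10.6 to 110 UMIs per 10000, and 89.9% of members had a UMI. In other fibroblasts 21.2% of cells had a UMI and the highest value was 81.0 per 10000, so the ranges overlap. *Nov* (ENSMUSG00000037362, chr15:54745702-54754039, plus strand) had 570 CPM in members, with a median of 4.7 and a highest value of 33.9 per 10000, and 45.7 CPM in other fibroblasts.

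*Pamr1* (ENSMUSG00000027188, chr2:102550012-102643041, plus strand) had 475 CPM in members and 64.7 CPM in other fibroblasts, where 35.2% of cells had a UMI against 94.3% of members. *Tnxb* (ENSMUSG00000033327, chr17:34670535-34719815, plus strand) had 368 CPM in members and 47.1 CPM in other fibroblasts, and was detected in 94.5% and 25.8% of cells. *Tnxb* overlaps a pseudogene, *Cyp21a2-ps*, on the other strand, and whether counting used the strand is not given in the sources used here. The 6 genes were thus low but not absent in the other fibroblasts, as the plot of rule gene levels shows.

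**Figure D2:**
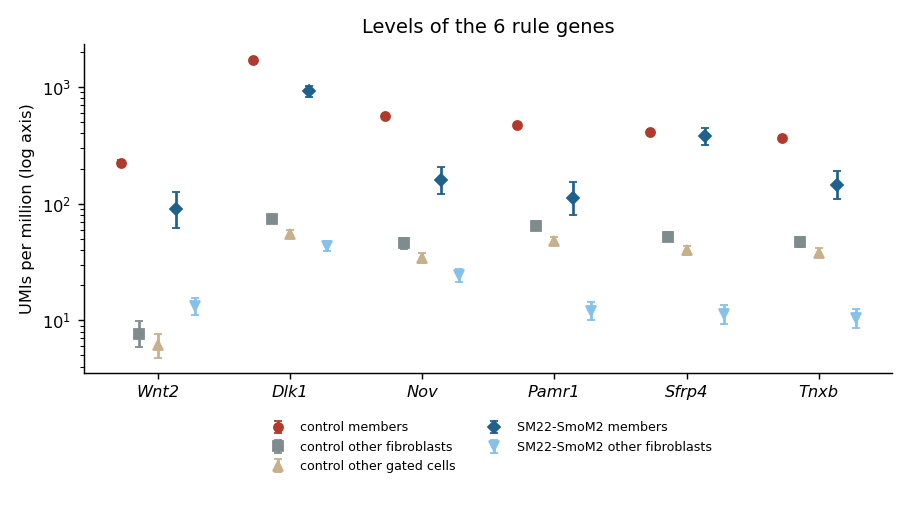
Levels of the 6 rule genes (CPM, log axis) in members and other fibroblasts of the control and *SM22-SmoM2* libraries and in all other gated control cells, with 95% Poisson intervals. All 6 are higher in members than in other fibroblasts of the same library, which the choice of members fixes.

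Promoter sequence is shown for the rule genes because they were high in the same cells, and the RefSeq table (GRCm38.p6) held 3 of the 6. Windows of 250 bases before the start were searched on both strands for the AP-1 motif (TGAGTCA or TGACTCA, in 4.46% of 32851 promoters in the table), the CCAAT box (CCAAT or ATTGG, 33.8%), the GC box (GGGCGG or CCGCCC, 32.7%) and the TATA box (TATAAA or TTTATA, 12.4%). Capitals mark matches. The *Wnt2* window held ATTGG at 74 to 70 bases and CCGCCC at 187 to 182 bases before the RefSeq start, and its last 140 bases, which GENCODE places inside the gene, are not shown. The *Tnxb* window held TGAGTCA at 55 to 49 bases, and the *Dlk1* window held none of the 4 motifs. No motif was shared, and a match is a description of the sequence, not of binding. The sequences are, 5′ to 3′ on the gene's strand, from chr6:18030586-18030695 (minus), chr12:109452573-109452822 (plus) and chr17:34670285-34670534 (plus).
Wnt2: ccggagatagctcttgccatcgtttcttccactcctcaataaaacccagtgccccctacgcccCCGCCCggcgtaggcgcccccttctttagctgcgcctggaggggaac
Dlk1: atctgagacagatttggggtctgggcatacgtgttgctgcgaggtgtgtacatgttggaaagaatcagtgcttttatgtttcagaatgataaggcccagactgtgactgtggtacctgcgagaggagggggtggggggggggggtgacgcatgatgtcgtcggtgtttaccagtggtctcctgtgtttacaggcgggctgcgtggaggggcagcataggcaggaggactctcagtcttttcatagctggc
Tnxb: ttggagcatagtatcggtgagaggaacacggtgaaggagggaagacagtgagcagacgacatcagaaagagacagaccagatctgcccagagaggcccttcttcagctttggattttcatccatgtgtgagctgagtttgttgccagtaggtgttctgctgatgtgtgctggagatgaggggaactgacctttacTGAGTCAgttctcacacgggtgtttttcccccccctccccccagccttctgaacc

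Each rule gene was also compared in cells chosen without it, by at least 3 of the other 5 genes. The UMIs of the left-out gene in the chosen cells are those of the members, since a cell with that gene and 3 others is a member in any case, and only cells lacking it are added. *Wnt2* had 198 CPM in the 399 fibroblasts chosen by the other genes and 8.39 CPM in the remaining 652, a log2 ratio of 4.56 (4.20–4.95). *Dlk1* gave 4.31 (4.19–4.43), *Nov* 3.42 (3.26–3.58), *Tnxb* 2.84 (2.69–3.00), *Pamr1* 2.74 (2.60–2.87) and *Sfrp4* 2.69 (2.54–2.84). Since the 6 genes were named for being high together, these values describe how far they shared cells. In male cells alone the ratios ran from 2.60 for *Pamr1* to 4.41 for *Wnt2*, and in the *SM22-SmoM2* library from 1.83 for *Nov* to 4.32 for *Sfrp4*.

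Cells just inside and just outside the limit differed in several genes that the rule did not use. In the 65 fibroblasts with 4 rule genes and the 84 with 3, *Clec3b* had 1411 and 889 CPM, *Cxcl1* 1639 and 742 CPM, and *Anxa3* 68.4 and 28.2 CPM. *Igfbp2* had 52.2 and 571 CPM, and *Crabp1* 93.3 and 240 CPM. *Tagln* was close in the 2 sets, with 79.6 and 81.7 CPM. Among fibroblasts with all 6 genes *Anxa3* had 341 CPM and *Ackr3* 188 CPM, above the 68.4 and 60.9 CPM at 4 genes, so the members differed among themselves in these 2 genes. Not every gene rose up to 6 rule genes. At 5 and 6 genes *Clec3b* had 2243 and 2213 CPM and *Pi16* 259 and 195 CPM. Depth differed too, with a median of 11967 UMIs in gated control cells with 4 genes and 17371.5 in those with 6.

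**Figure D3:**
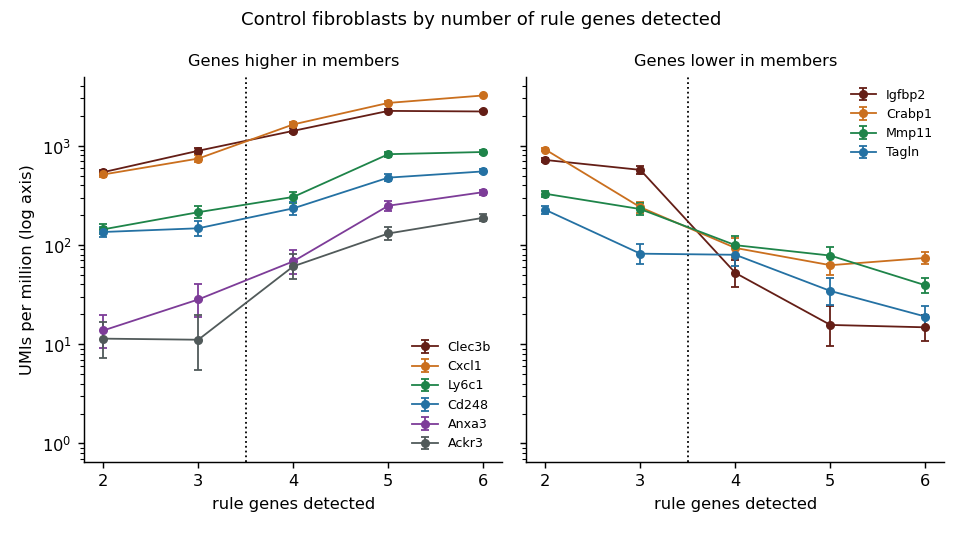
Levels (CPM, log axis) of 10 genes outside the rule in control fibroblasts without other lineages, by the number of rule genes detected (2 to 6), with 95% Poisson intervals. *Anxa3* goes from 28.2 CPM at 3 genes to 341 CPM at 6, and *Igfbp2* from 571 CPM to 14.8 CPM.

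Across all genes with at least 50 UMIs in the cells compared, 587 of 10162 (5.78%) had a ratio of at least 1 over other fibroblasts and 663 (6.52%) had −1 or less, with a median ratio of −0.03. Over all 1231 other gated cells, 508 of 10876 genes (4.67%) had at least 1 and 1120 (10.3%) had −1 or less, and the median was −0.13. Ratios carry exact conditional intervals. The lists of genes named next are described by how many of their genes passed a ratio of 1 or −1 and by their median, beside these values.

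Fascia and adventitial markers stood higher in members as a group. Of 18 listed genes, 17 had enough UMIs, and 17 of these had a ratio of at least 1, with a median of 2.40. The other, *Smpd3*, had 0 UMIs in members. *Clec3b* (tetranectin, which binds plasminogen) had 2075 CPM in members and 395 CPM in other fibroblasts, a ratio of 2.39 (2.34–2.45). Its values per member ran from 0 over a median of 19.7 to 78.6 UMIs per 10000, and overlapped those of other fibroblasts, which had a median of 0 and a highest value of 102. *Ly6c1*, a membrane-anchored surface protein, had 768 and 97.6 CPM, a ratio of 2.98 (2.87–3.09). It was detected in 92.5% of members and 33.0% of other fibroblasts.

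The highest ratios of the list were those of *Efhd1*, with 68.6 and 3.72 CPM (4.21, 3.67–4.78), *Anxa3*, a phospholipid-binding annexin, with 274 and 15.4 CPM (4.16, with an interval of 3.9 to 4.43), and *Ackr3*, a scavenger receptor for *Cxcl12*, with 154 and 9.84 CPM (3.96, 3.63–4.31). *Sbsn* gave 3.18, *Cd55*, which protects cells from complement, 3.02, *Has1*, a hyaluronan synthase, 2.90, and *Sema3c*, a secreted semaphorin, 2.59. *Pi16* had 188 and 35.5 CPM (2.40, 2.21–2.59) but was found in 34.5% of members only, with 78.4% of its UMIs in the tenth of members that had the most. *Cd248* had 482 and 124 CPM (1.95) and was found in 91.7% of members. *Dpp4*, a surface peptidase that is also a papillary marker, had 64.3 and 27.6 CPM (1.22, 0.97–1.47), the lowest ratio of the list. Over all other gated cells *Limch1* went the other way, with −2.29, against 1.68 over other fibroblasts.

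Most members thus carried several of these markers at once. With each cell thinned to 2500 UMIs, members had a mean of 5.99 ± 2.50 of the 18 genes (SD over 348 cells), and other fibroblasts 2.10 ± 1.37. Fibroblasts with 0, 3, 4, 5 and 6 rule genes had means of 1.81, 2.74, 3.98, 5.97 and 6.78. Cells with endothelial markers had 2.08, with Schwann markers 1.10 and with mural markers 1.03.

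**Figure D4:**
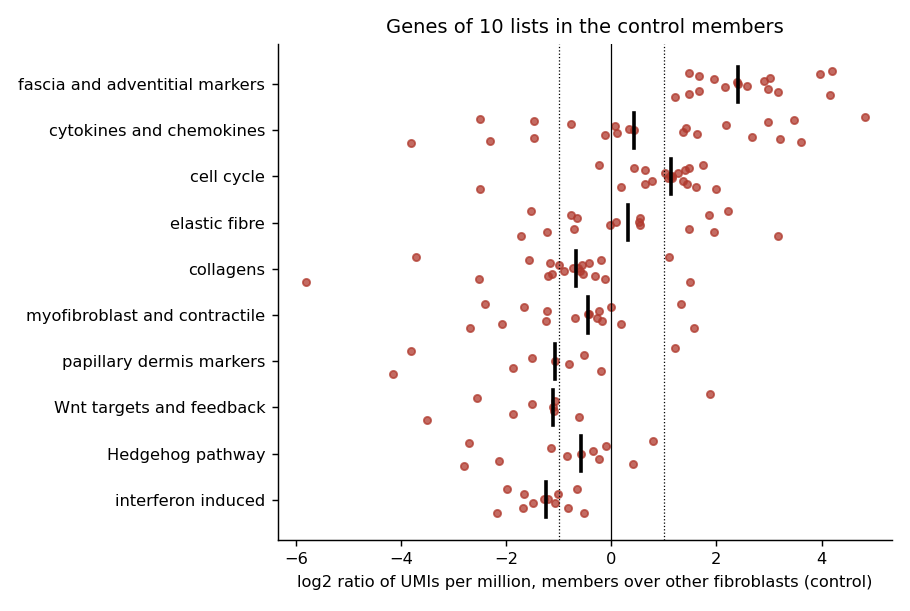
Log2 ratios of members over other fibroblasts for each measured gene (points) of 10 gene lists, with the median of each list as a black bar and dotted lines at −1 and 1. The fascia and adventitial list lies wholly above 1, with a median of 2.40, and the interferon list has a median of −1.24.

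Among other Wnt ligands *Wnt16* was higher, with 38.3 and 8.28 CPM (2.21, 1.81–2.62). *Wls*, which carries Wnt ligands to the cell surface, had 392 and 286 CPM (0.46), and *Wnt5a* 36.2 and 62.7 CPM (−0.79). *Wnt10a* had 0 UMIs in members and 7.68 CPM (64 UMIs) in other fibroblasts. With the 0 taken as 3 UMIs over the group, it was 13.7-fold lower in members, a value that depends on this floor. *Rspo3*, a secreted enhancer of Wnt signaling, had 0.563 and 6.48 CPM (3 UMIs in members, −3.53, −5.85 to −1.90). In all, 2 of 11 measured genes for ligands and their secretion, *Wnt2* included, had a ratio of at least 1 and 3 had −1 or less.

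Secreted antagonists went both ways, with 1 of 8 other than *Sfrp4* at 1 or more and 3 at −1 or less. *Sfrp2* had 1220 and 469 CPM (1.38, 1.32–1.44). *Wif1*, which binds Wnt ligands, had 2.44 and 34.2 CPM (−3.81, −4.74 to −3.01), and *Dkk3* 68.3 and 188 CPM (−1.46). In male cells *Dkk2* had 35.5 and 9.14 CPM (1.96, 1.45–2.49). There 3 of 9 antagonists, *Sfrp4* included, had 1 or more and 3 had −1 or less. Of 13 receptor genes none reached 1 and 3 were at −1 or less, *Fzd1* with 42.9 and 127 CPM (−1.57), *Fzd3* and *Lgr5*, with 2.81 and 24.0 CPM (−3.09).

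Targets and feedback genes of the pathway were mostly lower, with 7 of 9 at −1 or less, 1 at 1 or more, and a median of −1.12. *Axin2*, a feedback inhibitor widely used as a readout of canonical Wnt signaling, had 3.75 CPM (20 UMIs) in members and 10.7 CPM in other fibroblasts (−1.51, −2.29 to −0.80). *Nkd1* had 4.88 and 28.7 CPM (−2.56) and *Tnfrsf19* 1.69 and 19.2 CPM (−3.51). *Lef1* had 0 UMIs in members and 1 in other fibroblasts. *Myc* was the exception, with 133 and 36.3 CPM (1.87, 1.67–2.07), and its ratio over all other gated cells was 0.73. *Dact2*, an intracellular regulator of Wnt signaling chosen after its values were seen, had 27.4 CPM (146 UMIs) in members and 0.48 CPM (4 UMIs) in other fibroblasts (5.83, 4.45–7.73).

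Of 11 measured Hedgehog genes, none had 1 or more in control members and 4 had −1 or less. *Ptch1*, the Hedgehog receptor and itself a target of the pathway, had 3.94 and 17.3 CPM (−2.13, −2.87 to −1.47), and *Gli1*, a target and effector, 1.31 CPM (7 UMIs) and 9.12 CPM (−2.80, −4.16 to −1.68). *Smo*, the signal transducer, had 50.3 and 54.0 CPM (−0.10, −0.33 to 0.12), and *Gas1*, a co-receptor, 238 and 424 CPM (−0.83). In male cells 1 of the 11 had 1 or more, *Gli2* with 4.36 and 2.01 CPM (1.12, −0.10 to 2.45), and 4 had −1 or less.

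In the Notch pathway, *Dlk1* of the rule, the receptor *Notch2* with 101 and 46.9 CPM (1.10, 0.91–1.29) and the ligand *Jag1* with 76.3 and 31.9 CPM (1.26, 1.03–1.49) reached 1, and *Notch1* was the 1 of 10 genes at −1 or less, with 9.19 and 18.5 CPM (−1.01). Of the target genes, *Hes1*, with 727 and 774 CPM (−0.09), and *Heyl*, with 13.5 and 13.8 CPM (−0.03), were close in both groups. In male cells the targets *Hey1* and *Nrarp* had 18.3 and 10.0 CPM (0.87, 0.33–1.43) and 6.88 and 4.68 CPM (0.55, −0.30 to 1.43). Of the CCN family, *Ctgf* had 50.6 and 21.5 CPM (1.24) and *Cyr61* 798 and 392 CPM (1.02), next to *Nov*, and *Wisp1* 83.8 and 182 CPM (−1.12). *Cyr61* had 0.39 over all other gated cells.

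Matrix genes went both ways. Of 20 collagens, 2 had a ratio of at least 1 and 7 had −1 or less, with a median of −0.67. *Col1a1* had 15169 and 28253 CPM (−0.90, −0.91 to −0.89). *Col7a1*, the anchoring fibril collagen, had 16.3 and 213 CPM (−3.71), and *Col26a1* 3 UMIs (0.563 CPM) against 31.6 CPM, the lowest ratio among the genes ranked (−5.81, −8.10 to −4.25). *Col14a1*, which associates with collagen fibrils as *Tnxb* does, had 555 and 259 CPM (1.10), and *Col5a3* 358 and 126 CPM (1.5).

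Of 16 genes of elastic fibres 5 had at least 1 and 3 had −1 or less. *Eln* (elastin) had 556 and 118 CPM (2.23, 2.13–2.33), *Fbn1* (fibrillin) 1034 and 286 CPM (1.85), *Emilin2* 197 and 21.8 CPM (3.18), *Efemp1* 185 and 48.0 CPM (1.95), and *Mfap5* 4039 and 1457 CPM (1.47). *Mfap4*, another microfibril protein, had 899 and 2951 CPM (−1.71). In male cells *Eln* had 545 and 64.5 CPM, and in female cells 41.9 CPM (4 UMIs in 6 members) and 226 CPM. *Fn1* (fibronectin) had 2221 and 880 CPM (1.33) and *Tnc* (tenascin C) 262 and 264 CPM (−0.01).

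Several contractile genes were lower in members. *Tagln*, whose promoter drives the labelling, had 31.5 and 203 CPM (−2.69, −2.92 to −2.46) and was found in 17.5% of members and 43.8% of other fibroblasts. *Myl9* had 86.4 and 364 CPM (−2.07), *Mylk* 12.0 and 63.6 CPM (−2.41) and *Acta2*, the smooth muscle actin of myofibroblasts, 200 and 273 CPM (−0.45). Of 16 measured myofibroblast and contractile genes 6 had −1 or less, and 2 had 1 or more, *Fn1* and *Fap*, a fibroblast surface protease with 150 and 50.4 CPM (1.57).

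Several genes for inflammatory mediators were higher in members. *Cxcl1* and *Cxcl2*, ligands that draw neutrophils, had 2842 and 446 CPM (2.67, 2.62–2.72) and 1108 and 141 CPM (2.98, 2.89–3.07). Per member *Cxcl1* ran from 0 over a median of 14.3 to 193 UMIs per 10000, against a median of 0.674 and a highest value of 115 in other fibroblasts. *Ccl2*, which draws monocytes, had 1562 and 584 CPM (1.42). *Il11* had 99.8 and 10.8 CPM (3.21), *Tslp* 60.4 and 4.92 CPM (3.62) and *Il6* 59.6 and 19.2 CPM (1.63).

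The same list holds 4 genes of prostaglandin synthesis. *Ptgs1* had 74.4 CPM (397 UMIs) in members and 2.64 CPM (22 UMIs) in other fibroblasts (4.82, 4.20–5.51), *Ptgs2* 138 and 12.5 CPM (3.47, 3.17–3.78) and *Ptgis*, prostacyclin synthase, 85.3 and 18.7 CPM (2.19). *Ptges*, a prostaglandin E synthase, had 44.1 and 34.7 CPM (0.35, 0.09–0.60). *Ptgs1* was found in 39.4% and *Ptgs2* in 45.1% of members, and in 3.09% and 7.15% of other fibroblasts. *Tnfaip6*, a hyaluronan-binding protein of inflammation, had 1588 and 217 CPM (2.87). Other chemokines were lower, *Cxcl14* with 4.50 and 63.1 CPM (−3.81), *Ccl11* with 27.0 and 152 CPM (−2.49) and *Ccl8* with 52.5 and 145 CPM (−1.46). In all, 10 of 21 genes of this list had 1 or more and 5 had −1 or less.

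Of 12 interferon-induced genes 9 had −1 or less over all cells and none 1 or more, with a median of −1.24. In male cells alone 3 of the 12 had −1 or less and the median was −0.67. *Isg15* had 99.8 and 393 CPM (−1.98, −2.11 to −1.84) and *Ifit3* 9.38 and 42.4 CPM (−2.18). In male cells *Isg15* had 90.6 and 225 CPM, and in female cells 178 and 781 CPM. *Ifi27l2a* went the other way in male cells, with 262 and 211 CPM (0.32, 0.19–0.44). Of 17 immediate early and heat shock genes 4 had 1 or more, *Junb* with 1585 and 546 CPM (1.54), *Ier3*, *Fosl1* and *Atf3*, and their ratios over all other gated cells were 0.52, 1.20, 0.40 and 0.07.

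Among growth factors, *Fgf18* had 18.8 and 3.00 CPM (2.64, 2.0–3.34), *Pdgfa* 64.9 and 19.4 CPM (1.74) and *Hbegf* 115 and 48.0 CPM (1.26), and 6 of 21 genes had 1 or more and 3 had −1 or less. Over all other gated cells *Pdgfa* and *Hbegf* were lower in members, with −1.13 and −1.47. *Penk* had 19.5 and 82.6 CPM (−2.08). *Igf1* had 217 and 617 CPM (−1.51), *Igfbp2*, which binds insulin-like growth factors, 20.4 and 579 CPM (−4.82, −5.11 to −4.55), and *Igfbp6* 1782 and 693 CPM (1.36). Of 14 genes of that pathway 2 had 1 or more and 6 had −1 or less.

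Of the imprinted genes other than *Dlk1*, 3 of 13 had 1 or more and 2 had −1 or less. *Plagl1*, an imprinted transcription factor, had 144 and 42.4 CPM (1.77), *Ndn* 154 and 74.2 CPM (1.05) and *Meg3*, a noncoding RNA made next to *Dlk1*, 3050 and 1987 CPM (0.62). *Mest* had 61.1 and 248 CPM (−2.02) and *Peg3* 32.4 and 69.4 CPM (−1.10). Among markers of the lower dermis *Ly6a* had 2177 and 524 CPM (2.05) and *Cd34* 680 and 312 CPM (1.12), and *Mgp* 118 and 431 CPM (−1.86), with 4 of 13 genes other than *Dlk1* at 1 or more and 2 at −1 or less. Of 9 papillary markers 5 had −1 or less and 1, *Dpp4*, had 1 or more. *Crabp1*, which binds retinoic acid, had 72.8 and 1301 CPM (−4.16, −4.31 to −4.01).

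Cell cycle genes were higher, with 13 of 20 at 1 or more, 1 at −1 or less and a median of 1.13, and 7 of 20 at 1 or more with a median of 0.73 over all other gated cells. *Mki67* had 22.3 and 8.04 CPM (1.47, 1.03–1.93), *Top2a* 53.8 and 19.9 CPM (1.43) and *Ccnb2* 111 and 27.97 CPM (1.99). *Cdkn2a*, an inhibitor of the cycle, had 8.06 and 45.5 CPM (−2.50) and *Cdkn1a*, another, 182 and 54.1 CPM (1.75), with 0.12 over all other gated cells. At 2500 UMIs per cell, at least 2 of 9 proliferation genes were found in 50 of 348 members, 14.4% (10.9–18.5), and in 38 of 713 other fibroblasts, 5.33% (3.8–7.24). At full depth these shares were 27.6% and 9.26%.

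Beyond the lists, the genes ranked highest over other fibroblasts included *1700019D03Rik* with 34.7 and 0.72 CPM (5.59), *Klhdc8a* with 13.7 and 0.36 CPM (5.25), *Anxa8*, an annexin, with 13.3 and 0.36 CPM (5.21), *Stxbp6* with 101 and 6.84 CPM (3.88), *Pcsk6*, a proprotein convertase, with 29.4 and 2.16 CPM (3.77) and *Adgrg2*, an adhesion receptor, with 75.2 and 5.52 CPM (3.77). The lowest included *Rarres1* with 2.25 and 53.1 CPM (−4.56), *Ngfr*, the low-affinity neurotrophin receptor, with 0.563 CPM (3 UMIs) and 13.8 CPM (−4.62, −6.92 to −3.03), *Robo2* with 2.06 and 34.8 CPM (−4.08) and the collagenase *Mmp13* with 3.94 and 65.9 CPM (−4.06).

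Markers of other lineages were summed in 4 sets of cells, since the other fibroblasts had been chosen for low levels of these markers while the members keep their 10 cells over the limit. The 10 immune markers summed to 180 CPM in members, with *Cd74* the most abundant at 109 CPM, to 35.2 CPM in the 338 members without those cells, to 37.2 CPM in other fibroblasts and to 193 CPM in all other gated cells. The 10 keratinocyte markers summed to 201, 58.3, 63.5 and 57.7 CPM in the same order, with *Krt10* the most abundant. Without the cells over the limit, the immune and keratinocyte sums of members were thus near those of other fibroblasts. *Krt10* had 135 CPM in members, and 219 of its 718 UMIs lay in the 276 male members, where it had 50.2 CPM, next to 55.3 CPM in other male fibroblasts. The mural markers summed to 121, 106, 55.8 and 71.3 CPM (*Ndufa4l2* the most abundant, at 43.7 CPM in members), with 4 of 6 at 1 or more over other fibroblasts. The Schwann markers summed to 304, 294, 198 and 1624 CPM (*Pmp22* at 267 CPM in members) and the endothelial markers to 63.9, 63.7, 64.0 and 70.5 CPM (*Egfl7* the most abundant). *Krtdap*, a keratinocyte gene, had the highest ratio of all genes ranked (258 UMIs in members, 6.33), but over all other gated cells its ratio was 6.83 with, and 4.14 without, cells of other lineages, and 1.07 (−0.16 to 2.16) at 2500 UMIs per cell. When the 10 members over the limit were left out, 12 of 452 named genes outside the rule moved by over 1.5 times against other fibroblasts and 8 changed direction, among them *Cd74* (2.77 to −0.16), *Krt10* (1.25 to −0.17) and *Krt1* (4.86 to −0.32). Of the 119 genes with 1 or more 113 stayed there, and of the 114 with −1 or less 112 did.

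Overlap with the other fibroblast groups known by their genes in the control library differed by group, beside a share of members of 32.2% over all fibroblasts. Of 354 fibroblasts with *Crabp1*, *Mmp11* and *Prss35*, 20 were members, 5.65% of those cells and 5.92% of the 338 members without other lineages, while 46.8% of other fibroblasts carried these 3 genes. *Mmp11* had 56.6 and 399 CPM (−2.82) and *Prss35* 83.3 and 544 CPM (−2.71). Of 58 cells with *Mmp3*, *Wisp2* and *Clec11a*, 17 were members (29.3%, 18.1–42.7), and 5.03% of members and 5.75% of other fibroblasts carried these genes. Of 32 cells with *Agtr2*, *Angptl1* and *Thbs4*, 19 were members (59.4%, 40.6–76.3), which was 5.62% of members, beside 1.82% of other fibroblasts. Of 30 cells with *Cst6*, *Meox1* and *Tenm2*, 1 was a member, 0.296% of members, beside 4.07% of other fibroblasts. *Agtr2*, an angiotensin receptor, had 30.9 and 10.2 CPM (1.60), the only 1 of 11 measured names of these groups at 1 or more, with 7 at −1 or less. In male cells alone none of the 11 reached 1 and 8 had −1 or less. The overlaps given here were not split by sex, and members were 43.0% (39.1–47.0) of male fibroblasts.

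Nearly all members whose sex could be read were male. A cell counted as male if it had UMIs of Y-linked genes but none of *Xist*, as female in the opposite case. Of 282 members called, 276 (97.9%, 95.4–99.2) were male and 6 female, while 15 members had both kinds of UMI and 51 neither. Among other fibroblasts 63.3% (59.2–67.3) were male, and among cells with endothelial, mural and Schwann markers 66.0%, 59.9% and 42.7%. Members were 269 of 625 male fibroblasts, 43.0% (39.1–47.0), and 6 of 212 female ones, 2.83% (1.05–6.06). The labels do not tell the pooled mice apart, so the sex of the cells and the mouse or wound they came from cannot be told apart.

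**Figure D5:**
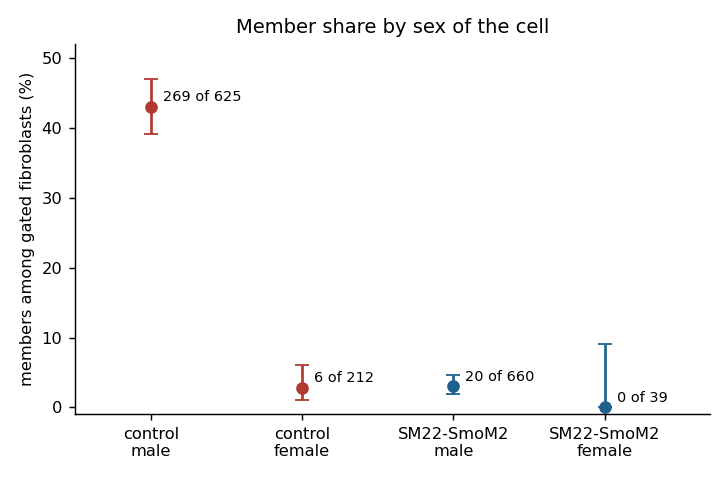
Share of members (%, y axis) among fibroblasts without other lineages called male or female in each library, with 95% Clopper-Pearson intervals. The control library has 269 of 625 male and 6 of 212 female cells, and the *SM22-SmoM2* library 20 of 660 and 0 of 39.

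When male cells alone were compared, 276 members and 356 other fibroblasts, most named genes kept their direction. Of 452 genes outside the rule, 429 had the same direction, 23 the opposite and 45 moved by over 1.5 times. Of the 119 with 1 or more over all cells 110 had 1 or more in male cells, and of the 114 with −1 or less 102 had −1 or less. The fascia and adventitial list kept 17 of 17 at 1 or more. *Anxa3* had 4.15, *Ackr3* 3.88, *Pi16* 2.68, *Cxcl1* 2.52, *Crabp1* −4.35, *Igfbp2* −5.36 and *Tagln* −2.82. The 6 female members had 220 CPM of *Wnt2* and 1592 CPM of *Dlk1*, next to 223 and 1749 CPM in male members, and 5 of the 6 carried all 6 rule genes. Barcodes with both *Xist* and Y-linked UMIs, which can hold cells of different mice, were 4.31% (2.43–7.01) of members and 3.23% (2.06–4.8) of other fibroblasts.

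In the *SM22-SmoM2* library, 24 cells met the rule and none of them passed the limit for other lineages. Female cells were few among the fibroblasts of that library, with 94.3% of its other fibroblasts male, and the 20 sexed members were all male. Among its cells with endothelial, mural and Schwann markers 58.4%, 70.4% and 50% were male. Among male fibroblasts without other lineages the share of members was 20 of 660, 3.03% (1.86–4.64), against 269 of 625 in the control library. The 24 cells had a median of 14685 UMIs, close to that of control members. *Wnt2* had 89.7 CPM (32 UMIs) in them, *Dlk1* 925 CPM, *Nov* 160 CPM, *Pamr1* 112 CPM, *Sfrp4* 378 CPM and *Tnxb* 146 CPM. Over control members the log2 ratios were −1.31, −0.88, −1.83, −2.08, −0.12 (−0.38 to 0.13) and −1.33. Of the 24 cells 17 had only 4 of the rule genes, as did 69 of the 348 control members, and levels outside the rule also went with the number of rule genes. The 17 cells were therefore also compared with the 65 control members with 4 rule genes and no other lineage, a comparison chosen after seeing the data. *Wnt2* then had 89.1 and 79.6 CPM (0.16, −0.58 to 0.86) and *Sfrp4* 430.5 and 210.1 CPM (1.03, 0.68–1.38), while *Dlk1* (−1.13), *Nov* (−2.04), *Pamr1* (−1.98) and *Tnxb* (−0.80) were still lower. Whether fewer such cells were present or were captured, or the genes were lower in cells of the same kind, cannot be told apart.

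Across 7815 genes with at least 50 UMIs, 414 (5.3%) had a ratio of at least 1 in *SM22-SmoM2* over control members and 677 (8.66%) had −1 or less, with a median of −0.08, and the 24 cells limit their precision. Between members with 4 rule genes, 86 of 3070 genes (2.80%) had 1 or more and 253 (8.24%) had −1 or less. Levels of *SM22-SmoM2* members are given first. *Ptch1* had 134 CPM (48 UMIs) in *SM22-SmoM2* members and 3.94 CPM (21 UMIs) in control members (5.09, 4.33–5.91), and 136 CPM in the other *SM22-SmoM2* fibroblasts. *Gli1* had 8.41 CPM on 3 UMIs (2.68, 0.10–4.81). *Smo* had 53.2 and 50.3 CPM (0.08, −0.67 to 0.75), and how transgene transcripts were counted is not given in the sources used here. Of 8 measured Wnt antagonists, 2 had 1 or more and none −1 or less, *Sfrp5* with 157 CPM (56 UMIs) and 0.563 CPM (3 UMIs) (8.12, 6.50–10.44) and *Sfrp1* with 126 and 28.9 CPM (2.13, 1.61–2.61), and the other *SM22-SmoM2* fibroblasts had 27.4 and 63.3 CPM of them. *Igfbp3* and *Igfbp5*, which bind insulin-like growth factors, had 162 and 38.6 CPM (2.07) and 784 and 287 CPM (1.45), but −0.10 (−0.64 to 0.42) and 0.50 (0.25–0.74) between members with 4 rule genes, where *Ptch1* had 3.58 and *Sfrp1* 2.14.

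Of the fascia and adventitial markers, 7 of 16 had −1 or less over control members and none 1 or more, with a median of −0.84. Between members with 4 rule genes 1 of 11 had −1 or less and 1 had 1 or more, with a median of 0.02. *Anxa3* had 101 and 274 CPM (−1.44) over all members, but 100.2 and 68.4 CPM (0.55, −0.17 to 1.24) at 4 rule genes, and *Ly6c1* had 361 and 768 CPM (−1.09), but 249 and 305 CPM (−0.29, −0.71 to 0.10). *Clec3b* had 2376 and 2075 CPM (0.20, 0.09–0.30), and 2252 and 1411 CPM (0.67, 0.53–0.82) at 4 rule genes. *Pi16* had 227 and 188 CPM, but 1 cell held 53 of its 81 UMIs in *SM22-SmoM2* members. Without the cell richest in it in each group, *Pi16* had 82.5 and 172 CPM (−1.06, −1.66 to −0.52). At 2500 UMIs the 24 cells had a mean of 5.08 ± 2.60 of the 18 genes (SD over cells), next to 5.99 in control members and 2.30 in other *SM22-SmoM2* fibroblasts.

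Of 20 cytokines and other inflammatory mediators, 9 had −1 or less and 3 had 1 or more, and between members with 4 rule genes 4 and 2 of 12. *Cxcl1* had 986 CPM (−1.53, −1.68 to −1.37) over all members, and 1225 and 1639 CPM (−0.42, −0.60 to −0.25) at 4 rule genes. A single cell held 161 of its 352 UMIs, and without the richest cell in each group the ratio was −2.33. *Ccl2* had 314 CPM (−2.32), with −1.16 at 4 rule genes and −3.14 without the richest cell in each group. *Ptgs2* had 5 UMIs (−3.30) and *Ptgs1* 1 UMI (−4.73, −10.04 to −2.25), and *Tnfaip6* 134 CPM (−3.56, −4.00 to −3.15, but −2.58 at 4 rule genes). *Il33*, an alarmin cytokine, had 137 and 16.7 CPM (3.04, 2.51–3.56, but 2.14 at 4 rule genes) and *Ccl8* 333 and 52.5 CPM (2.67). The other *SM22-SmoM2* fibroblasts had 175 CPM of *Il33*, so its level was not particular to the members of that library. Of 10 interferon-induced genes 6 had 1 or more and none −1 or less, *Isg15* with 275 and 99.8 CPM (1.46) and *Ifit1* with 134 and 24.9 CPM (2.43), and 3 of 5 at 4 rule genes. Immediate early genes had 8 of 17 at −1 or less and none at 1 or more, *Junb* with 378 and 1585 CPM (−2.07), and 5 of 12 at 4 rule genes.

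Among genes that met the ranking's conditions on UMIs, sex and depth, which *Sfrp5*, *Ptch1*, *Ptgs1* and *Il11* did not, the highest ratios over control members were those of *Wfdc1*, with 132 and 2.25 CPM (5.87, 4.93–6.92), *Mest*, with 1530 and 61.1 CPM (4.65, 4.44–4.85), *Ccdc3* (4.41), *Cdkn2a* (3.52), *Nr2f2*, a nuclear receptor (3.25), and *Clec11a* (3.25). Among the 10 lowest were *Eln*, with 3 UMIs (8.41 CPM) against 556 CPM (−6.05, −8.33 to −4.50), *Csrnp1*, also on 3 UMIs (−4.07, −6.35 to −2.52), *Stmn4*, on 3 UMIs (−4.02, −6.30 to −2.47), *Il1rl1*, the receptor of IL-33 (−3.73), *Fst*, an activin antagonist (−3.50), and *Ptx3*, a pentraxin (−3.44). Of the 20 genes ranked, 16 had a value at 4 rule genes, with the same direction there. Of these, *Cdkn2a*, *Bace2*, *Ddx60*, *Stmn4* and *Pim3* had fewer than 50 UMIs in the cells compared. At 4 rule genes *Wfdc1* had 3.96, *Ccdc3* 3.74, *Mest* 3.56, *Cdkn2a* 3.45, *Nr2f2* 2.16 and *Clec11a* 1.60. *Csrnp1* had −3.26, *Ptx3* −2.29 and *Stmn4* −2.05. *Cdkn2a* had 92.5 CPM in all *SM22-SmoM2* members and 111 CPM in the other fibroblasts of that library (−0.27, −0.81 to 0.23). *Tagln* had 115 and 31.5 CPM (1.87, 1.34–2.37), with 19 of its 41 UMIs in 1 cell, and 1.20 (0.48–1.85) without the richest cell in each group and 0.94 (0.33–1.52) at 4 rule genes. Of 19 collagens 3 had 1 or more and none −1 or less, *Col4a1* of the basement membrane with 165 and 23.8 CPM (2.80, but 1.82 at 4 rule genes and 2.21 without the richest cell in each group), and *Col1a1* had 19651 and 15169 CPM (0.37, but 0.03 at 4 rule genes), while 2 of 17 had 1 or more and 2 had −1 or less at 4 rule genes. Of 20 cell cycle genes 7 had −1 or less and 2 had 1 or more, *Cdkn2a* and *Cdkn1c*, and at least 2 of the 9 proliferation genes were found at 2500 UMIs in 1 of 24 cells (4.17%, 0.105–21.1) and in 11.8% (9.71–14.1) of other *SM22-SmoM2* fibroblasts. At full depth these shares were 16.7% and 19.1%.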

How the data were processed

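Dermal cells of control and *SM22-SmoM2* wounds were sorted for Tomato and made into 1 droplet 3′ library per condition. The authors deposited raw UMI counts per gene and cell, made with bcl2fastq and Cell Ranger on mm10, as the submitters' processing notes name them, with versions, gene annotation and strand setting not given in the sources used here. Of 27998 gene IDs, 27645 were found in GENCODE vM21 and 26501 had the same name. Matrix columns carry no matching barcodes, so barcodes shared between libraries could not be counted. Doublets were not removed, and barcodes that hold *Xist* as well as Y-linked UMIs are given in their place.

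Cells with over 10% mitochondrial UMIs were left out. Counts were summed over the cells of a group and divided by the group's total. Log2 ratios have exact conditional intervals, CPM exact Poisson intervals and shares Clopper-Pearson intervals, all 95%. Unless stated otherwise, counts of genes and list medians needed 50 UMIs of a gene over the cells compared. Ratios of some named genes are given below this limit, among them that of *Gli1* in *SM22-SmoM2* over control members. A count of 0 UMIs in a group was taken as 3 (in counts of genes and list medians, also 1 or 2). No ratio is given where both groups had 3 or fewer. Cells of other lineages were those with at least 10 UMIs per 10000 of a lineage's markers, *Pmp22* and *Cspg4* left out, a comparison chosen after seeing the data. The members and gene lists were chosen with earlier results of these data known. Named genes were the rule genes, genes of the lists, the 15 highest and 10 lowest ratios in control, and the 10 highest and 10 lowest of *SM22-SmoM2* over control members, among genes with the same direction in male cells, in each of 3 depth classes and, for ratios within the control library, in female cells. Scripts ran on Python 3.11.15 with numpy 2.4.6, scipy 1.17.1, pandas 2.3.3 and matplotlib 3.10.9 and were tested on simulated data.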

Additional observations from a re-analysis of the deposited data

Results flagged for a closer look

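In 16 of 48 named genes compared, members lay on opposite sides of the other fibroblasts in the 2 libraries, with both counting intervals clear of 0. In 4 more, *Has1*, *Procr*, *Stmn4* and *Crabp2*, the signs differed but an interval held 0. Of the 16 genes, 15 were among the 20 genes named for the highest and lowest ratios of *SM22-SmoM2* over control members, so that the choice favours this pattern, and of the 28 genes named otherwise 1 showed it with both intervals clear of 0, *Ptgs2*. The difference between libraries was not tested, since each condition had 1 library, and the *SM22-SmoM2* values rest on 24 members, with 3 UMIs of *Eln*, *Csrnp1* and *Pim3* up to 546 UMIs of *Mest* in them. Of these genes, 9 were higher in control members and lower in *SM22-SmoM2* members. Log2 ratios over the other fibroblasts of the same library, control first, were 3.47 and −2.16 for *Ptgs2*, 2.23 and −2.73 for *Eln*, 1.85 and −4.13 for *Csrnp1*, and 1.59 and −3.63 for *Il1rl1*. They were 2.87 and −0.66 for *Tnfaip6*, 2.0 and −1.83 for *Fst*, 2.17 and −1.95 for *Ptx3*, 3.06 and −0.86 for *Aqp1*, and 2.13 and −2.53 for *Pim3*.

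The other genes were lower in control members and higher in *SM22-SmoM2* members. The ratios were −1.44 and 2.67 for *Wfdc1*, −2.02 and 0.75 for *Mest*, −0.82 and 1.16 for *Ccdc3*, −1.49 and 1.30 for *Nr2f2*, −1.60 and 2.02 for *Clec11a*, −2.56 and 0.99 for *Bace2*, and −1.90 and 1.22 for *Ddx60*. A single *SM22-SmoM2* member held 185 of 546 UMIs of *Mest*, 31 of 67 of *Ccdc3*, 24 of 60 of *Nr2f2* and 10 of 22 of *Bace2*. Without the richest cell, *SM22-SmoM2* members had 1089, 109, 109 and 36.2 CPM of these 4 genes. The other *SM22-SmoM2* fibroblasts had 908, 83.9, 68.2 and 31.0 CPM, so these 4 differences rest in large part on 1 cell.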

How the results depend on the processing

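No paired analysis was possible because each condition had 1 library. Of gated control cells 22.0% were members, and the share was 27.4% with at least 3 genes, 17.7% with at least 5, 10.6% at 2500 UMIs, 19.9% without barcodes over the 95th percentile of UMIs, 32.2% without cells of other lineages, 31.6% in male and 1.69% in female cells. In *SM22-SmoM2* the 2.20% became 5.05%, 0.642% and 0.188% under the first 3 of these, and 0% in female cells.

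Over all other gated cells, the 508 genes at 1 or more became 287 at 2500 UMIs and 977 when 3 UMIs in each group sufficed, and the 1120 at −1 or less became 297 in female cells and 667 without other lineages. Of *SM22-SmoM2* over control members, the 414 genes at 1 or more became 1028 when 3 UMIs in each group sufficed, and the 414 and the 677 at −1 or less became 86 and 253, of fewer genes measured, between members with 4 rule genes. Scaling by the median ratio gave 619 at 1 or more and 949 at −1 or less in place of 508 and 1120, and for *SM22-SmoM2* 500 and 581 in place of 414 and 677. The median of the fascia and adventitial list, 2.77, was 1.71 in female cells, and that of the 6 left-out rule genes, 3.51, was 2.67 in female cells and 2.83 at 2500 UMIs.

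Directions over all other gated cells changed in 5 genes whose intervals before the change were clear of 0, and the cause was not tested. *Eln* went from 2.53 to −2.18 in female cells, *Wfdc1* from −1.001 to 0.0845 (−0.70 to 0.84) with at least 3 genes and 0.21 within 3 depth classes, and *Krtdap* from 6.83 to −0.67 with at least 5 genes. *Limch1* went from −2.29 to 1.71 without other lineages and 1.31 in male cells alone without them, and *Gpr37l1* from −5.72 to 0.00347 (−1.95 to 1.80) without other lineages. In all, 849 of 1175 values of 79 named genes stayed within their counting interval, 319 moved past it and 7 reversed from a value whose interval was clear of 0. Signs also changed in 14 values of *Fst*, *Ccdc3* and *Crabp2*, whose intervals held 0. For *SM22-SmoM2* over control members 629 of 741 values of 60 genes stayed, 105 moved and 7 reversed from a value whose interval was clear of 0. Signs also changed in 9 values of *Sfrp4*, *Pi16*, *Dpp4*, *Gfpt2* and *Smo*, whose intervals held 0. Of the 7, *Sema3c* went from −0.50 to 0.0055 with per-cell means, and between members with 4 rule genes *Wnt2* went from −1.31 to 0.16, *Anxa3* from −1.44 to 0.55, *Cd248* from −0.81 to 0.023, *Sema3c* to 0.47, *Mfap5* from −0.62 to 0.17 and *Igfbp3* from 2.07 to −0.10. At 4 rule genes only the interval of *Mfap5* (0.04 to 0.31) was clear of 0, so the other genes named there lost their difference rather than reversed it. In left-out rule genes 46 of 78 stayed and 32 moved.

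The *SM22-SmoM2* comparison was not computed at 2500 UMIs (2 members), in female cells (0) or with at least 5 genes (7). Depth limits genes with few UMIs in the 24 *SM22-SmoM2* or 6 female members.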

Other observations

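Signals of the TGF-beta family differed by gene between members and other fibroblasts. Of 15 measured genes 3 had a log2 ratio of at least 1 and 2 had −1 or less. *Smad7*, an inhibitor induced by the pathway, had 87.9 and 31.5 CPM (1.48, 1.26–1.71), and *Fst*, which binds activins, 127 and 31.7 CPM (2.0), with −0.09 over all other gated cells. *Fstl3*, a related binding protein, had 7.88 and 34.3 CPM (−2.12). The ligand *Tgfb1* had 81.8 and 78.9 CPM (0.05, −0.13 to 0.23). Among 16 genes of BMP signaling 2 had 1 or more, the ligands *Bmp2* with 10.3 and 3.0 CPM (1.78) and *Bmp4* with 8.25 and 3.6 CPM (1.20), and 5 had −1 or less. *Bmp7*, another ligand, had 7 UMIs against 13.0 CPM (−3.30).

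Of 21 metalloproteinases and their inhibitors, 6 had −1 or less, 2 had 1 or more and 13 lay between, with a median of −0.40. *Mmp3*, a stromelysin, had 117 and 445 CPM (−1.92), and *Adamts5*, an aggrecanase, 237 and 72.4 CPM (1.71). Of 11 complement and related genes other than *Pamr1*, 2 had 1 or more and 4 had −1 or less, *C3* with 4 UMIs against 8.76 CPM (−3.55) and *C2* with 44.8 and 134 CPM (−1.58). Of 10 adipogenic genes 2 had 1 or more and 2 had −1 or less, with a median of −0.29. *Ebf1*, a transcription factor of adipocyte precursors, had 509 and 228 CPM (1.16) and *Zfp423* 6.0 and 2.28 CPM (1.40), while *Lpl*, lipoprotein lipase, had 104 and 409 CPM (−1.98). Of 10 tendon and cartilage genes 4 had −1 or less, *Tnmd* among them with 8.81 and 97.8 CPM (−3.47), and 6 lay between. Of the 19 measured genes on the list of positional transcription factors none had 1 or more and 5 had −1 or less. *Hoxc8* had 25.1 and 83.9 CPM (−1.74) and *Twist2* 55.1 and 180 CPM (−1.71), while *En1*, which marks a lineage of back dermis, had 44.3 and 57.9 CPM (−0.39). Outside that list, *Hoxc11* had a ratio of 3.79 over all other gated cells. *Barx2*, another transcription factor gene, was detected in 39.9% of members and 3.09% of other fibroblasts. *Sod3*, the extracellular superoxide dismutase, had 138 and 29.1 CPM (2.25, 2.03–2.46).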
